A study of Homo sapiens with 18 samples.

Results

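The metallothionein gene cluster of chromosome 16 was examined in NB4 cells before and after exposure to maltonis. Its members were the peaks of all 18 deposited lists that overlapped chr16:56590000-56730000 (hg19), a 140 kb window holding, in order, MT3, MT2A, MT1E, MT1M, MT1A, MT1F, MT1G, MT1H and MT1X. The window held 78 of the 501863 peaks. Merged by mark, these gave 7 of 27037 regions for trimethylation of histone H3 at lysine 4 (H3K4me3), 3 of 46996 for trimethylation at lysine 9 (H3K9me3) and 9 of 36947 for acetylation at lysine 27 (H3K27ac). Across the marks they fell at 10 loci. The window was chosen because an H3K4me3 peak near the MT1G promoter, at about position 56701900, was called in untreated and not in maltonis libraries. The H3K4me3 values are therefore given below as a description with no test.

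NB4 is an established line of acute promyelocytic leukaemia, and maltonis is a synthetic molecule derived from maltol. Cells were left untreated or were cultured for 24 h with 10 µM maltonis, and chromatin immunoprecipitation sequencing was carried out for each mark in 3 libraries per condition. All libraries came from this one cell line. The study describes its replicates as biological, while the labels do not say whether they were separate cultures, and the p-values measure the spread between these libraries. In bulk chromatin, fewer cells carrying a mark and less of the mark per cell cannot be told apart.

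Metallothioneins are small, cysteine-rich proteins that bind zinc and copper, take up cadmium and other toxic metals, and react with oxidants. Their genes sit side by side as a family of close copies. Transcription of the MT1 and MT2A genes rises when zinc or cadmium frees the zinc-finger factor MTF1 to bind metal response elements in their promoters. H3K4me3 marks active promoters, H3K27ac marks active promoters and enhancers, and H3K9me3 marks silent heterochromatin.

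The promoters are shown because metal response elements are the sequences through which these genes are known to be induced. RefSeq sequences were found for 3 of the 9 members, MT2A, MT1H and MT1X, and only these are printed, each covering 250 bases before the start on the plus strand of GRCh38.p14. The capitals mark metal response element cores, TGCACNC or TGCGCNC on either strand, and the TATAAA box on the gene strand.
MT2A, chr16:56608334-56608583: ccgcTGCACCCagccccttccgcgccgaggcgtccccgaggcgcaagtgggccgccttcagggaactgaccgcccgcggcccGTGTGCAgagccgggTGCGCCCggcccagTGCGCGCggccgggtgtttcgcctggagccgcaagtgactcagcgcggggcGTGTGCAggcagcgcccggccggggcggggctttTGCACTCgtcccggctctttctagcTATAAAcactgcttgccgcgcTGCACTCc
MT1H, chr16:56669564-56669813: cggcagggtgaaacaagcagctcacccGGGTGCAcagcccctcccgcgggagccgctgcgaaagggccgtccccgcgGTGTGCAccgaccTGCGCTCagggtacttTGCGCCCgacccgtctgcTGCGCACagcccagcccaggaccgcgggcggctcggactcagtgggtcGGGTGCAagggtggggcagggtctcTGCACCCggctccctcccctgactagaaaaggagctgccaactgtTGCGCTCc
MT1X, chr16:56682220-56682469: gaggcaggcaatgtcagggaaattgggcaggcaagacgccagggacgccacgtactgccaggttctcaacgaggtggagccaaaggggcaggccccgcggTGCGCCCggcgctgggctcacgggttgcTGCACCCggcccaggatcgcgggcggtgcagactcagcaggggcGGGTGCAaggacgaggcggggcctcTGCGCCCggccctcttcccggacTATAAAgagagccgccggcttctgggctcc
The MT2A promoter held 7 metal response element cores, that of MT1H held 8 and that of MT1X held 4. At least 1 core was present in 24.8% of the 35116 promoters of the table, and 4 or more in 0.370%. Counting the gene itself, 11 promoters held at least as many as MT2A and 6 at least as many as MT1H. A TATAAA box was present in MT2A and MT1X but not in these 250 bases of MT1H, against 6.80% of all promoters. The antioxidant element TGACNNNGC, searched on both strands and left in lower case, occurred once in MT2A and once in MT1X, and in 10.9% of all promoters. No match of one motif overlapped a match of another. These matches describe letters and not bound sites, and as the peaks are in hg19 the sequences were not placed inside them.

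In the peak lists, gene names were given to regions from the order of the genes and general knowledge of their spacing. Only MT1G was anchored by a stated hg19 position, and no hg19 annotation was used here. In untreated cells H3K4me3 peaks were called at MT2A, MT1E, MT1F, MT1G and MT1X in all 3 libraries. MT3 had no H3K4me3 peak in any library, and MT1H, which follows MT1G, had no peak separate from those of its neighbours. Between MT1E and MT1F, where MT1M and MT1A lie in the gene order, the lists held a single region, called for H3K27ac in untreated libraries 2 and 3 only.

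**Figure D1:**
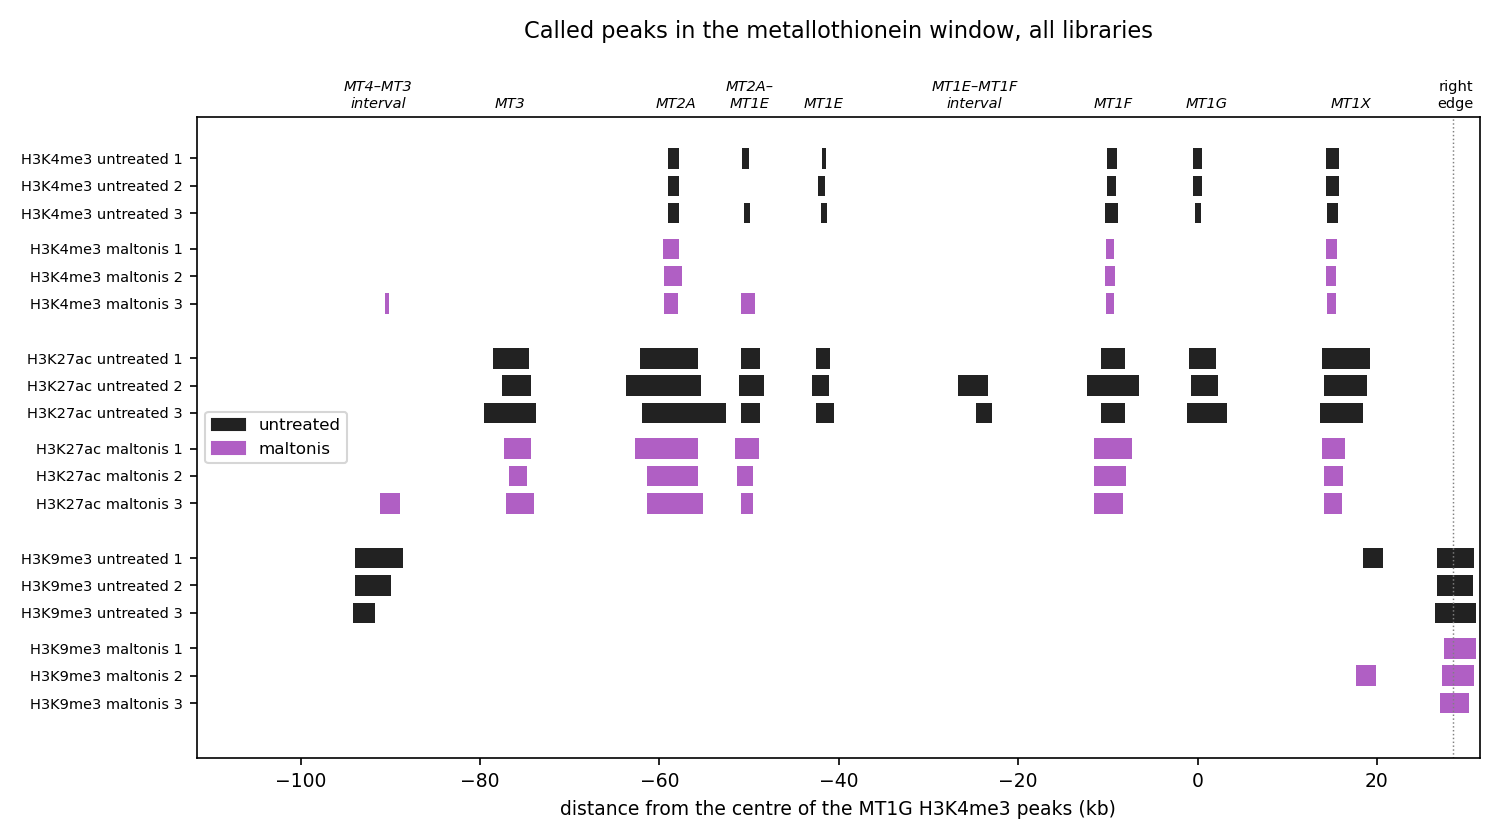
Called peaks of the 18 libraries along the metallothionein window. The horizontal axis gives the distance in kb from the centre of the MT1G H3K4me3 peaks, each row is a library, black bars are untreated and purple bars are maltonis peaks, and the dotted line is the right end of the window. The MT1E and MT1G peaks of H3K4me3 and H3K27ac appear in the 3 untreated rows and in no maltonis row.

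MT1G, the member that gave the window its choice, carried H3K4me3 in the 3 untreated libraries at fold enrichments of 5.09, 5.29 and 5.24 over the local background. The merged peak spanned chr16:56701042-56702036, and each peak was 743 to 995 bp wide. Within its own library the peak stood at the 45.2nd, 45.9th and 46.8th percentile of strength, near the middle of the list. No maltonis list held a peak there.

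MT1E, another zinc-binding MT1 isoform, had fold enrichments of 2.81 to 3.61 in untreated libraries and no peak in the maltonis ones. Its untreated peaks were weak, at the 32.0th, 13.5th and 22.8th percentile of their lists. Their −log10 q was 4.48, 1.64 and 2.23, against 12.1 to 12.7 at MT1G. MT1G and MT1E were 2 of 7 H3K4me3 regions called in all 3 untreated and 0 maltonis libraries. Among all H3K4me3 regions that class made up 1.66%. As the window was picked on this contrast, nothing is read from that share. The reverse class, called in all 3 maltonis and 0 untreated libraries, had 0 regions in the window for every mark, and made up 0.836% of all H3K4me3, 1.65% of all H3K27ac and 0.781% of all H3K9me3 regions.

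MT2A, the most widely expressed metallothionein gene, had the strongest H3K4me3 peak of the window in every untreated library. Its fold enrichment was 6.99, 7.22 and 6.76 in untreated libraries and 4.74, 4.47 and 4.55 after maltonis. The conditions did not overlap. The peak moved from the 90.1st to 94.2nd percentile of its lists to the 53.0th to 56.2nd. It also widened, from 1265 to 1315 bp to 1523 to 2047 bp, because its left edge lay 430 bp further to the left on average. On the plus strand of MT2A this is the upstream side.

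MT1X, the last gene of the cluster, followed with fold enrichments of 5.17, 5.70 and 5.37 in untreated and 3.47, 3.33 and 3.53 in maltonis libraries, again without overlap. Its peak narrowed from 1258 to 1412 bp to 1010 to 1177 bp, with the right edge drawn in by 265 bp on average. In width, every maltonis library was above every untreated one at MT2A and below at MT1X, and over the genome 54.8% and 3.99% of regions did so. At MT1F the right edge was drawn in too, by 285 bp on average, while the called widths overlapped. In fold enrichment MT1F behaved otherwise. Its values of 5.34, 5.71 and 4.55 in untreated and 5.79, 5.01 and 4.89 in maltonis libraries overlapped. Thus 2 of the 3 H3K4me3 regions called in all 6 libraries had every maltonis value below every untreated one, whereas over the genome 52.8% of such regions did. The same 2 regions separated in strength percentile, as did 37.6% of all regions downwards. The ratio of the mean maltonis to the mean untreated fold enrichment was 0.657 at MT2A, 0.636 at MT1X and 1.01 at MT1F, with a median of 0.906 over all 12470 regions.

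The remaining H3K4me3 peaks were weak, as at MT1E, and varied between libraries. The interval between MT2A and MT1E had a peak in untreated libraries 1 and 3, at 3.04 and 3.51, and in maltonis library 3 at 2.87. Left of MT3, in the interval that follows MT4, maltonis library 3 alone had a peak, at 2.69. Summed over the window, H3K4me3 peaks covered 6.07, 5.44 and 5.96 kb in untreated and 3.80, 4.24 and 5.38 kb in maltonis libraries. The mean changed from 5.82 ± 0.337 to 4.48 ± 0.816 kb (SD, n = 3), and every maltonis library lay below every untreated one, as in 5.49% of 6980 genome tiles of 140 kb covered in all 6 libraries.

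**Figure D2:**
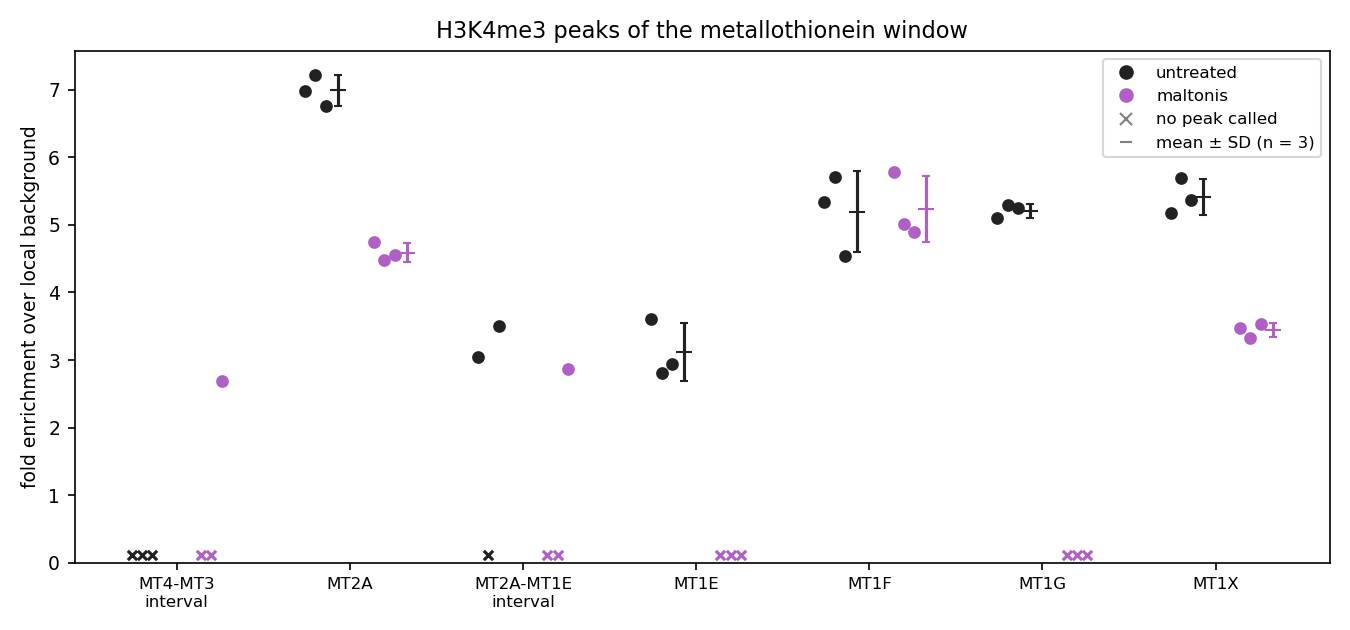
H3K4me3 fold enrichment over the local background (vertical axis, from 0) at each locus of the window. Each point is a library, crosses are libraries with no called peak, and bars give the mean ± SD of 3 libraries. MT2A and MT1X sit lower after maltonis, MT1F overlaps, and MT1E and MT1G have a peak in the 3 untreated libraries and crosses for the 3 maltonis ones.

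H3K27ac was not used to choose the window, although its loss at MT1G was known beforehand and is not independent of the choice. H3K27ac regions covered 25.2, 33.2 and 33.0 kb of the window in untreated libraries and 19.4, 15.2 and 18.2 kb after maltonis. The mean fell from 30.5 ± 4.56 to 17.6 ± 2.16 kb (SD, n = 3), without overlap (exact two-sided permutation test, p = 0.1, the smallest that 3 against 3 libraries allow). Every maltonis library lay below every untreated one in 43.1% of 8594 tiles of 140 kb, whose median change was -17.7%, against -42.2% here. A larger loss was seen in 17.2% of tiles.

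Reads inside these regions fell by 50.8%. They were scaled as RPM in peaks, that is, reads per 1000000 reads inside all called regions of a library. The window held 158, 162 and 156 RPM in untreated and 78.7, 73.4 and 82.0 in maltonis libraries. The means were 158 ± 3.00 and 78.0 ± 4.32 RPM (SD, n = 3), without overlap (exact two-sided permutation test, p = 0.1). RPM was not summed over the tiles, so the share of tiles that separate in reads is not known. The untreated values lay closer together than those of the covered length.

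The 140 kb on either side did not show this loss of reads. To the left the untreated mean was 153 ± 8.15 RPM and the maltonis mean 148 ± 2.79 (SD, n = 3). To the right they were 79.8 ± 11.3 and 77.8 ± 1.15 RPM. The conditions overlapped in both flanks, and the difference between the window and its flanks was not tested. The covered length of the left flank was lower, at 37.3 kb in untreated and 22.1 kb in maltonis libraries without overlap. Genome-wide, the mean covered length of H3K27ac was 225 Mb before and 180 Mb after maltonis, while the mean reads per kb of region went from 88.8 to 108. In the window the reads per kb averaged 105 and 86.7, and the libraries of the 2 conditions overlapped.

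**Figure D3:**
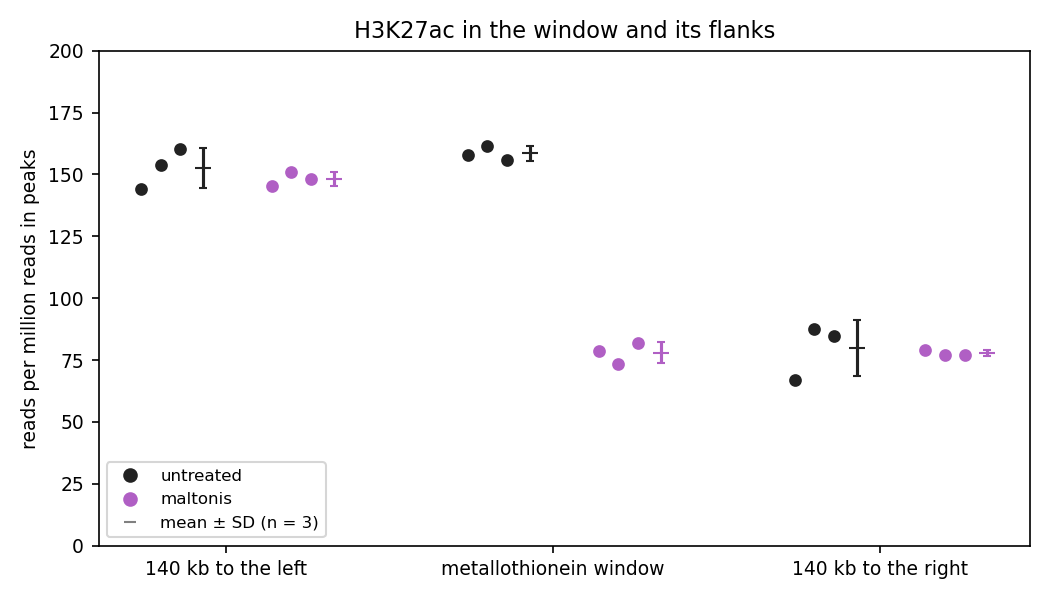
H3K27ac RPM in peaks (vertical axis, from 0) in the metallothionein window and in the 140 kb to its left and right. Points are libraries and bars the mean ± SD of 3 libraries. The window values separate, at 156 to 162 untreated and 73.4 to 82.0 with maltonis, and the flank values overlap.

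MT1X showed the largest H3K27ac change among the regions called in all 6 libraries. It held 665, 648 and 612 reads in untreated and 154, 142 and 155 in maltonis libraries. In RPM this was 34.2, 31.9 and 30.4 against 8.57, 6.84 and 8.05, so the conditions stood far apart. The log2 fold change was -2.05 (SE 0.106, edgeR quasi-likelihood test, Benjamini-Hochberg adjusted p = 3.06e-07), and 161 of 20018 regions, 0.804%, had a lower one.

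At MT1X the region was drawn in from one side, and its reads per kb were lower as well. The region began between positions 56715201 and 56715601 in all 6 libraries. Its right end lay between 56720000 and 56720800 in untreated libraries and between 56717600 and 56718000 with maltonis, drawn in by 2600 bp on average. This is the downstream side of MT1X, and the width went from 4800 to 5400 bp to 2000 to 2600 bp. Called width fell without overlap at 1 of the 5 regions, MT1X, and in 28.2% of all regions. Reads per kb within the called region were 123, 135 and 128 in untreated and 59.2, 64.5 and 77.5 in maltonis libraries, without overlap.

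MT3, known mainly from brain, carried H3K27ac without H3K4me3. Its region held 296, 299 and 310 reads in untreated and 115, 120 and 136 in maltonis libraries, with no overlap in RPM. The log2 fold change was -1.24 (SE 0.136, edgeR adjusted p = 3.10e-05). Here the left edge had receded, by 1467 bp on average, and the right edge overlapped between the conditions. The left edge varied widely in untreated libraries, from 56622001 to 56624001, and lay at 56624201 to 56624801 with maltonis. Called width and reads per kb overlapped.

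MT2A held the most H3K27ac reads of the window, with 1348, 1356 and 1365 in untreated and 776, 892 and 903 in maltonis libraries. The log2 fold change was -0.62 (SE 0.0485, edgeR adjusted p = 3.63e-06). MT2A made up a larger share of the window's H3K27ac reads after maltonis, at 56.9% ± 1.83 (SD, n = 3) against 42.9% ± 1.45 before. The share of MT1X went from 20.3% ± 1.16 to 10.0% ± 0.807.

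The interval between MT2A and MT1E held 136, 135 and 130 reads in untreated and 94, 82 and 64 in maltonis libraries. Its log2 fold change of -0.69 (SE 0.192, edgeR adjusted p = 0.00966) was close to the threshold. The call was lost without untreated library 1, 2 or 3 (edgeR adjusted p = 0.0312, 0.0256 and 0.0219) and without maltonis library 2 or 3 (0.0293 and 0.0308). MT1F, a further MT1 isoform, held 387, 510 and 366 reads in untreated and 275, 289 and 254 in maltonis libraries. Its log2 fold change of -0.579 (SE 0.133, edgeR adjusted p = 0.00342) missed the required size of 0.58. It was called without untreated library 1 (-0.62) or 3 (-0.68) or maltonis library 1 (-0.64). Untreated library 2, with its wider region, held the most reads. Without that library the log2 fold change was -0.433 (edgeR adjusted p = 0.0134) and MT1F was not called. Nor was MT1F called without maltonis library 2 or 3 (edgeR adjusted p = 0.0109 and 0.0124).

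By these criteria, an adjusted p of at most 0.01 and an absolute log2 fold change of at least 0.58, edgeR called 4 of the 5 tested H3K27ac regions lower with maltonis and 0 higher. Over all regions tested, 19.2% were called lower and 8.18% higher. All 5 regions had every maltonis library below every untreated one in RPM, against 35.5% of all regions. The median log2 fold change was -0.69 over the 5 regions and -0.01 over all regions. Apart from MT1X, the regions were less extreme, as 5.90% of all regions had a lower log2 fold change than MT3, 18.0% than the MT2A to MT1E interval, 20.6% than MT2A and 22.0% than MT1F. When the called length of each region entered the test as an offset, MT1X alone was called, at -1.06 (SE 0.121, edgeR adjusted p = 0.000838). The other 4 stayed lower in sign, between -0.85 and -0.44. In reads per kb, 3 of the 5 (the MT2A to MT1E interval, MT1F and MT1X) did not overlap between conditions, against 12.5% of all regions.

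**Figure D4:**
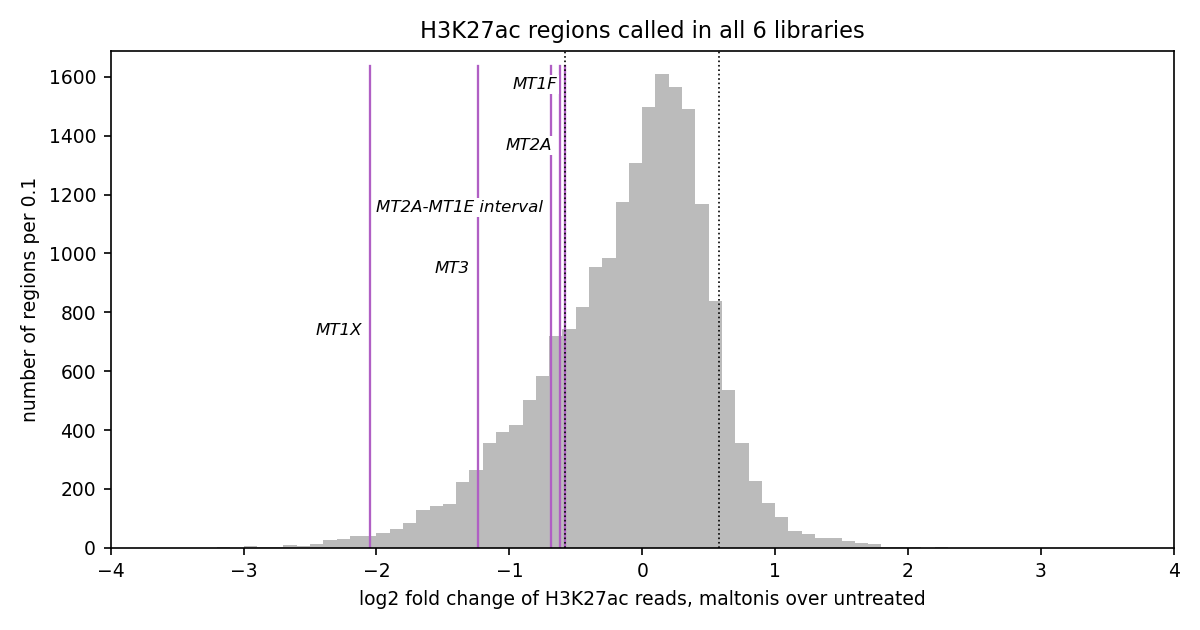
Distribution of the log2 fold change of H3K27ac reads, maltonis over untreated, for the 20018 regions called in all 6 libraries (grey bars, number of regions per 0.1). Purple lines are the 5 regions of the window and dotted lines the 0.58 threshold on either side. All 5 lie left of 0, from -2.05 at MT1X to -0.579 at MT1F.

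MT1G and MT1E could not enter that test, as they were called in the 3 untreated H3K27ac lists and in 0 maltonis lists. Such regions were 2 of 9 in the window and 6.04% of all H3K27ac regions. MT1G held 151, 145 and 196 reads in called regions of 3000, 3000 and 4400 bp, which merged to chr16:56700401-56704800. It stood at the 66.6th, 44.6th and 50.9th percentile of its lists. MT1E held 91, 87 and 80 reads and stood lower, at the 34.7th, 25.7th and 18.5th percentile. The lists hold called regions only, so a missing region has no value and its remaining signal cannot be bounded.

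At 2 more loci H3K27ac was called in some libraries only. The interval between MT1E and MT1F held 109 and 72 reads in untreated libraries 2 and 3. The interval left of MT3 held 67 reads in maltonis library 3, the library that also had the weak H3K4me3 peak there.

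**Figure D5:**
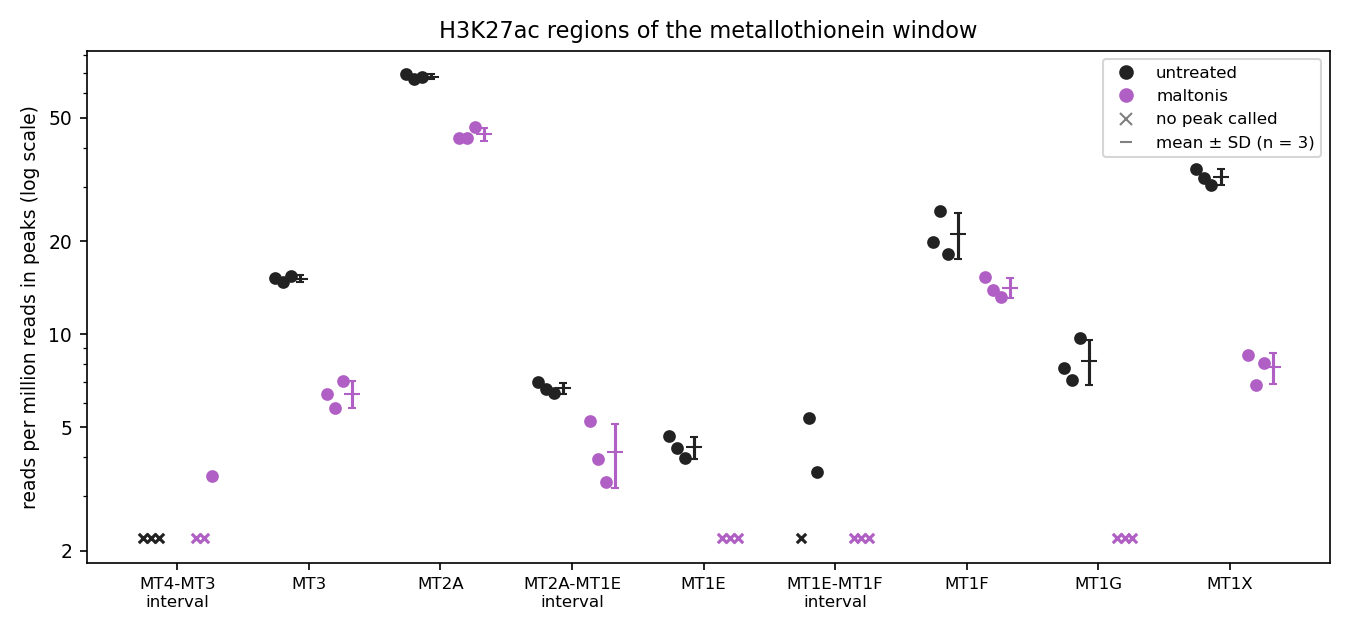
H3K27ac RPM in peaks (reads per 1000000 reads in peaks, vertical axis, log scale) at each locus of the window. Each point is a library, crosses are libraries with no called region, placed at an arbitrary low level, and bars give the mean ± SD of 3 libraries. The 5 loci called in all 6 libraries are lower after maltonis without overlap, and MT1X is separated most.

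H3K9me3 was sparse in the window and lay towards its ends, away from the MT2A to MT1G promoters. It covered 9.4, 5.8 and 4.4 kb in untreated and 1.0, 3.4 and 1.4 kb in maltonis libraries. The means were 6.53 ± 2.58 and 1.93 ± 1.29 kb (SD, n = 3; exact two-sided permutation test, p = 0.1). Every maltonis library lay below every untreated one in 11.6% of 8609 tiles, whose median change was -5.17%, against -70.4% here. A larger loss was seen in 0.163% of tiles. The tiles were not matched to the window for covered length, and in a sparse window the loss of a single region is a large percentage. The region left of MT3, called in no maltonis library, was 3933 bp wide on average in untreated libraries. The separation was lost when the lists were cut to equal numbers of peaks or to a common lowest score (-3.07 kb, exact permutation p = 0.2 for each), and the difference was -0.667 kb among the strongest 75% of peaks.

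Covered length was cut at the window's end, but reads were counted over whole regions. The region straddling the right end entered whole, with 24.5, 30.3 and 25.3 RPM in untreated and 28.0, 22.0 and 22.0 in maltonis libraries. In maltonis libraries 1 and 3 it was the only H3K9me3 region. In RPM, the window's H3K9me3 regions held 54.2, 45.5 and 35.6 in untreated and 28.0, 35.1 and 22.0 in maltonis libraries. These did not overlap either (exact two-sided permutation test, p = 0.1), though the lowest untreated and highest maltonis library were close together. The share of tiles that separate in H3K9me3 reads is likewise not known. Among the strongest 75% of peaks the difference was -2.80 and the conditions overlapped (exact permutation p = 0.5). At a common lowest score it was -11.2 (exact permutation p = 0.3), again with overlap.

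The region that went, merged to chr16:56607401-56613000, lay left of MT3 and was not called with maltonis. It held 58, 50 and 35 reads in called widths of 5400, 4000 and 2400 bp in untreated libraries. It was 1 of 3 H3K9me3 regions of the window, and 2.32% of all H3K9me3 regions were called in all 3 untreated and 0 maltonis libraries. It was weak, at the 16.6th, 22.4th and 0.893rd percentile of its lists. The H3K4me3 and H3K27ac peaks of maltonis library 3 at this locus overlapped its span.

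The one H3K9me3 region called in all 6 libraries straddled the right end of the window and held 77, 100 and 85 reads in untreated and 90, 69 and 57 in maltonis libraries. The conditions overlapped in reads. Its called width did not overlap, at 4000 to 4600 bp in untreated and 3200 to 3600 bp in maltonis libraries, as in 5.48% of all such regions, and its left edge lay 667 bp further to the right on average. That edge lies inside the window and is part of the difference in covered length. The log2 fold change of its reads was -0.17 (SE 0.232, edgeR adjusted p = 0.813), and it was not called, where edgeR called 0.0141% of all regions lower and 0.253% higher. One more region, right of the MT1X promoter, was called in untreated library 1 with 35 reads and in maltonis library 2 with 41.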

How the data were processed

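NB4 chromatin from 18 immunoprecipitations (6 groups of 3 libraries) was analysed from the deposited peak lists. Per the labels, the authors aligned reads to hg19 with BWA and SAMtools; the processing notes name MACS2 and SICER. The study's methods name MACS2 for H3K4me3 and epic2 for H3K9me3 and H3K27ac. The H3K4me3 lists are in the broadPeak format, one per library, and the deposited lists give a score, a ratio (fold enrichment over local background) and −log10 p-values and q-values. The other deposited lists give read counts per region and a score; their columns are those of epic2, and all widths are multiples of 200 bp once End is read as the last base, a reading taken from the values. H3K4me3 lists hold no counts, so their depth is unknown. Reads in peaks were 17974940 to 20773316 (H3K27ac) and 2595814 to 3366296 (H3K9me3) per library.

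Peaks sharing at least 1 bp were merged across the 6 lists of a mark. Window sums were compared by exact permutation over 20 assignments, whose smallest p is 0.1. Counts of regions called in all 6 libraries were tested with edgeR 4.0.16 (TMM, quasi-likelihood, R 4.3.3), adjusted over all regions. DESeq2 1.42.0, other scalings, filters, the replicate block and left-out libraries were alternatives. The edgeR test was tried on simulated counts. Strength percentiles rank a peak within its own list by its −log10 q or score. Every region of the window and all 9 members are named. The members, the lists and the tests were chosen with earlier results of these data known. Metal and oxidative stress genes elsewhere and promyelocyte markers were not analysed here, for want of an hg19 annotation.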

Additional observations from a re-analysis of the deposited data

How the results depend on the processing

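The H3K27ac loss in the window kept its direction and its separation of the conditions under every alternative run. Leaving out 1 library moved the covered length difference between -15.5 and -11.5 kb and that of RPM in peaks between -82.5 and -78.2. For H3K9me3 the same ranges were -5.67 to -3.17 kb and -21.5 to -12.2, and for the H3K4me3 covered length -1.80 to -1.01 kb. H3K4me3 peaks with a −log10 q of at least 10 gave -2.00 kb, against -1.35 kb for all peaks. The H3K27ac regions called by edgeR numbered 3 to 5 of 5 with 1 library left out (4 with all) and 1 with called length as an offset, the offset removing the part of the difference that lies in the called width. Those called for H3K9me3 stayed at 0, and the right-end H3K9me3 region turned from -0.17 to 0.11 on the log2 scale with the offset. Setting uncalled regions to 0 reads gave 5 H3K27ac regions called of 9, against 4979 lower of 36947 over all regions; MT1G and MT1E are among the 5 by construction, since their maltonis reads are filled in as 0, and the MT2A to MT1E interval was lost (edgeR adjusted p = 0.105). With a mean of at least 100 reads, no H3K9me3 region of the window was left to test. Over all regions, the offset changed the H3K27ac calls from 3840 lower and 1637 higher to 916 and 427, and DESeq2 changed the H3K9me3 calls from 2 and 36 to 44 and 139.

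Libraries with the same replicate number showed no shared deviation. Their correlations were 0.0018, 0.0297 and 0.0005 for H3K27ac and -4.05e-05, -0.0192 and 0.0061 for H3K9me3. Different numbers gave -0.0342 to 0.0316 for H3K27ac and -0.0141 to 0.0148 for H3K9me3. The H3K9me3 value of -0.0192, from the libraries numbered 2, lay below that range. Such values cannot show whether libraries were prepared as pairs, and H3K4me3 has no counts for this check. With the replicate block, 3 of 5 H3K27ac regions were called, the MT2A to MT1E interval being lost at an edgeR adjusted p of 0.0116, and 0 for H3K9me3. Read counts exist for called regions only, which limits every statement on a region that was not called.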
